A study of Mus musculus with 8 samples.

Results

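The HoxB cluster is the group of 10 Hoxb genes, *Hoxb13* and *Hoxb9* to *Hoxb1*, on mouse chromosome 11. The regions described here are the CpG islands that the deposited *Hox* table lists on that chromosome. It listed 13 of them, and 5 had a methylation value in every library, against 7461 islands with values among the 13840 listed over the genome. The assay was reduced representation bisulfite sequencing (RRBS), which measures DNA methylation at the CpG-rich ends of fragments cut at CCGG, in male mouse embryonic stem cells (mESCs) on day 2 and day 2.5 of their differentiation towards neuromesodermal progenitors (NMPs), the progenitors of spinal cord and trunk mesoderm. *Smchd1* wt cells carried Smchd1[fl/+] with SMCHD1 function intact. *Smchd1* matΔ cells carried Smchd1[del/+], came from oocytes in which Zp3-Cre, a recombinase active in growing oocytes, had removed *Smchd1*, and kept the intact paternal allele. All lines were F1 crosses of C57BL/6 mothers and Castaneus fathers, with 2 primary lines per genotype, each from its own blastocyst and each sampled on both days, so 8 libraries fell into 4 groups of 2. Day 2 is the time at which Wnt signalling was activated in the culture, and the comparisons asked whether the loss of maternal SMCHD1 or the interval after that step altered methylation of the islands. *Smchd1* matΔ cells were also heterozygous for *Smchd1*, and these libraries include no heterozygous cells from intact oocytes. Loss of maternal SMCHD1 and heterozygosity therefore cannot be told apart here.

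*Hox* genes encode homeodomain transcription factors that give segments along the body axis their identity, and within a cluster they are switched on in the order in which they lie on the chromosome, from *Hoxb1* at the anterior end to *Hoxb13* at the posterior end. Most of their CpG islands are held silent before activation by Polycomb complexes rather than by DNA methylation. SMCHD1 is a chromatin protein of the SMC family that takes part in silencing of the inactive X chromosome, imprinted genes and clustered gene families, *Hox* clusters among them.

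A stretch of 4 of the 5 islands is shown because the values that follow are averages over CpGs such as these. Each run is the CCGG-to-CCGG fragment of 40 to 300 bases with the most CpGs in its island, leaving out fragments over an annotated UTR. The sequences are the plus strand of the GRCm38.p6 reference genome of RefSeq, 5′ to 3′, which is also the strand of all 10 Hoxb genes, and capitals mark the CpGs.
Gm53 island, chr11:96251623-96251730, 13 CpGs in an exon of the lincRNA *Gm53*: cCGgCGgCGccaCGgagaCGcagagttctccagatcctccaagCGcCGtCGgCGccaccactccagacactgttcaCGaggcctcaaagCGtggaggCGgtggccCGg
Hoxb7 island, chr11:96287231-96287394, 12 CpGs outside annotated exons: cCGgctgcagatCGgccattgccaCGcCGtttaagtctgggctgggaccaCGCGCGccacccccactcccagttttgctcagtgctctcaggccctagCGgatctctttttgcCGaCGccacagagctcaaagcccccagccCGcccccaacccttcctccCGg
Hoxb4 island, chr11:96319083-96319260, 17 CpGs over the end of a coding exon: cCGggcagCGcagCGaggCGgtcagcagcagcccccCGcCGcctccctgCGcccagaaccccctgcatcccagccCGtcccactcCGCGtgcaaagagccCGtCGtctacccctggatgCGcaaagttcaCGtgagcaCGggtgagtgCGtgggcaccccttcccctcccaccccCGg
Hoxb2 island, chr11:96353065-96353255, 24 CpGs in coding sequence: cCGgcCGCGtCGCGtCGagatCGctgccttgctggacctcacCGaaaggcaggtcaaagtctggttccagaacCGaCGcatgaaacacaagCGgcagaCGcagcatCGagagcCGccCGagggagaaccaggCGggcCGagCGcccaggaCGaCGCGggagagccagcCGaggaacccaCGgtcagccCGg
The *Hoxb2* stretch codes for part of the homeodomain, the DNA-binding domain, and the *Hoxb4* stretch codes for the hexapeptide through which HOX proteins contact PBX partners. CCGG, which reads the same on both strands, was present in 100% of the listed HoxB islands, with or without values. Over all listed islands it was present in 100% of those with values and in 98.0% of those without.

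Methylation of CpG islands was low, with library means of 1.41 to 1.62% and library medians of 0.267 to 0.347% over the 7461 islands. Methylation outside islands is not covered by these values. No library stood apart in these summaries. The files give percentages only, so the read depth behind each value is unknown and no counting interval can be given. The stated filter required over 10 reads in each library. A low percentage or a 0 from few reads is imprecise. The labelled genotype and cell type could not be checked from methylation values.

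4 of the 10 Hoxb genes were overlapped by an island with values, namely *Hoxb9*, *Hoxb7*, *Hoxb4* and *Hoxb2*, and the remaining island with values lay over *Gm53* (ENSMUSG00000078706.4), a long intergenic non-coding RNA gene on the posterior side of *Hoxb9*. The 8 islands without values comprised 6 over genes, with 2 in *Hoxb8*, 1 at the start of *Hoxb6*, 1 at the start of *Hoxb5* and 2 in *Hoxb3*, and 2 between genes. Of the intergenic ones, 1 lay 5.817 kb from *Hoxb13*, on the side facing *Hoxb9*, and 1 lay 3.278 kb before *Hoxb4*. No listed island overlapped *Hoxb13* or *Hoxb1*. Nothing can therefore be said here about methylation at *Hoxb1*, *Hoxb3*, *Hoxb5*, *Hoxb6*, *Hoxb8* or *Hoxb13*.

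A CpG was counted as readable when it lay within 75 bases, the read length, of the end of a CCGG fragment of 40 to 300 bases. The 5 islands with values held 17 to 111 readable CpGs, with a median of 51, and the 8 without values held 13 to 46, with a median of 25. The *Gm53* island had the fewest of the 5 and the *Hoxb9* island the most. Over all listed islands, 70.7% of those with more than 40 readable CpGs had values, 39.9% of those with 21 to 40 and 32.8% of those with 11 to 20. For HoxB the counts were 3 of 4, 1 of 6 and 1 of 3 in the same classes. The *Hoxb3* island with 46 readable CpGs had no value and the *Gm53* island with 17 had, so this count did not sort the islands without exception.

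**Figure D1:**
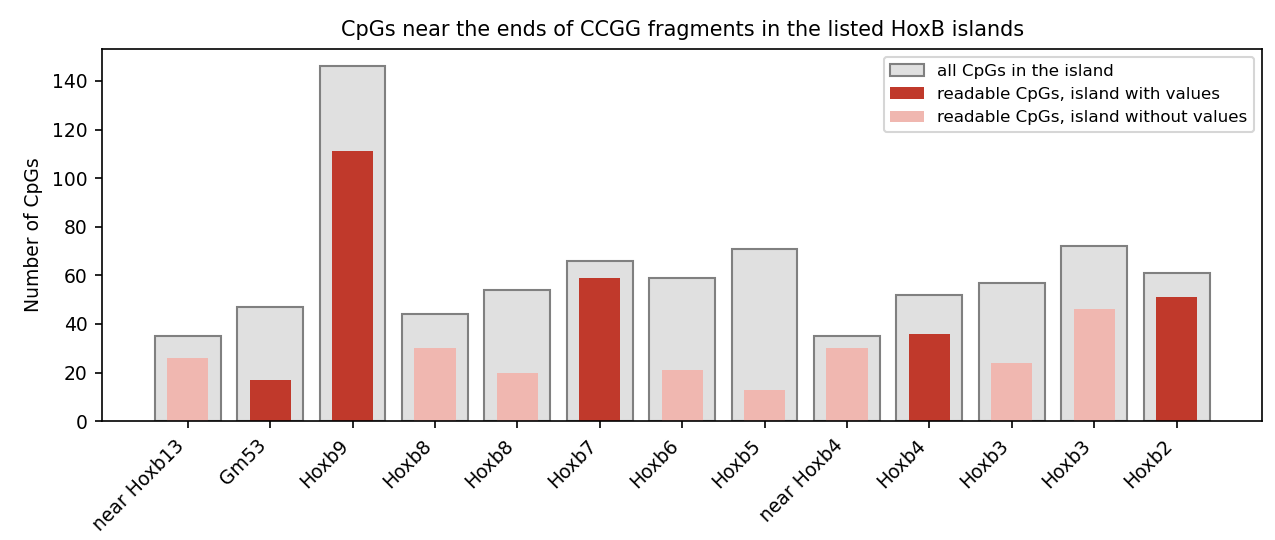
Number of CpGs (vertical axis) in each of the 13 listed HoxB islands, in chromosomal order from *Hoxb13* at the left to *Hoxb2* at the right. Grey bars count all CpGs, dark red bars the readable CpGs of the 5 islands with values, and pale red bars those of the 8 islands without. Readable CpGs range from 17 to 111 in the former and from 13 to 46 in the latter.

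Along the cluster, the level was highest at the posterior island and low at the other 4. Mean methylation over the 8 libraries was 7.53% at the *Gm53* island, 0.445% at *Hoxb9*, 0.798% at *Hoxb7*, 1.02% at *Hoxb4* and 0.507% at *Hoxb2*. The lowest value of the *Gm53* island, 2.94%, was above every value of the other islands, whose highest was 2.47% at *Hoxb4*. Among the 7461 islands the *Gm53* island ranked 217 from the top, with 97.1% of islands below it. For the others, 83.5% of islands lay below *Hoxb4*, 78.6% below *Hoxb7*, 62.7% below *Hoxb2* and 55.7% below *Hoxb9*. The 4 islands over Hoxb genes overlapped in their values, and their means did not run in the order of their positions.

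**Figure D2:**
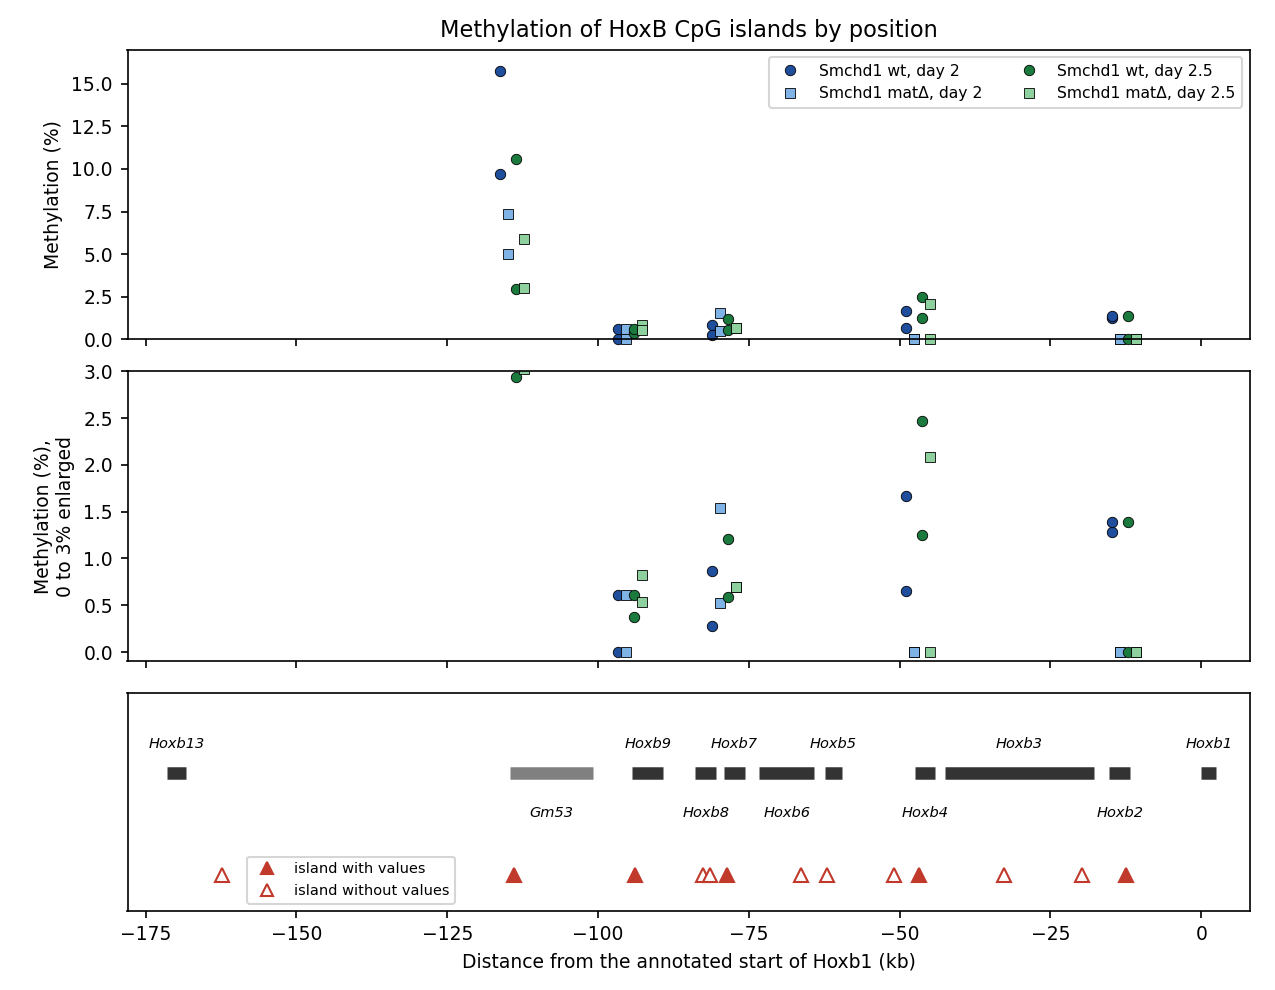
Methylation in percent in each library (top, full scale; middle, 0 to 3% enlarged) against the distance in kb from the annotated start of *Hoxb1*, with the genes as bars and the listed islands as triangles, filled where they have values (bottom). Circles are *Smchd1* wt and squares *Smchd1* matΔ libraries, blue for day 2 and green for day 2.5, with the groups set slightly apart. The *Gm53* island spans 2.94 to 15.7%, and the 4 islands over Hoxb genes lie between 0 and 2.47%.

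The *Gm53* island (chr11:96251536-96252033, 498 bp, 47 CpGs) covers a transcript start and exon sequence of *Gm53* and lies 19.424 kb before *Hoxb9*. The island held 17 readable CpGs and, at the assumed sizes, only 1 whole CCGG fragment, the fewest of the 5. At day 2 it was methylated at 15.7 and 9.72% in *Smchd1* wt lines 1 and 2 and at 7.33 and 5.0% in *Smchd1* matΔ lines 1 and 2. At day 2.5 the values were 2.94 and 10.6% in wt and 3.03 and 5.88% in matΔ. Both wt libraries were above both matΔ libraries at day 2, and the genotypes overlapped at day 2.5. The day 2 means were 12.7% ± 4.26 and 6.17% ± 1.65 (SD, n = 2 lines each), and the day 2.5 means were 6.77% ± 5.42 and 4.46% ± 2.02. The matΔ minus wt difference was −6.56 percentage points at day 2 (SE 3.12, 95% interval −14.1 to 0.93) and −2.32 at day 2.5 (−9.81 to 5.18). Neither passed, with Benjamini-Hochberg adjusted p of 0.968 and 0.995 in limma. The day 2 difference was −3.56 points without wt line 1.

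Averaged over the days, the *Gm53* island stood at 9.34 and 10.2% in the wt lines and at 5.18 and 5.44% in the matΔ lines. The lines of a genotype were closer to each other than to those of the other genotype, with a difference of −4.44 points (SE 1.04, 95% interval −7.21 to −1.67). This had an unadjusted p of 0.0101 and an adjusted p of 0.854 in limma. It was −1.24 points without the day 2 library of wt line 1 and −7.64 without the day 2.5 library of that line. The day 2.5 value minus the day 2 value was −12.8 points in wt line 1, −4.30 in matΔ line 1 and 0.88 in line 2 of each genotype. The lines shared only a number across genotypes. The change of day was −5.96 points in wt (adjusted p = 0.986) and −1.71 in matΔ (adjusted p = 1.0), and the difference between these changes was 4.25 points (SE 4.41, adjusted p = 0.902 in limma). Leaving out each library, the change of day ranged from −9.79 to −2.13 points in wt and from −3.14 to −0.28 in matΔ.

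The *Hoxb9* island (chr11:96271056-96272795, 1740 bp, 146 CpGs) is the longest of the 5 and covers the start, UTR and coding sequence of *Hoxb9*, a posterior member of the cluster. Its values were 0 and 0.606% in wt and 0 and 0.606% in matΔ at day 2, and 0.379 and 0.606% in wt and 0.826 and 0.535% in matΔ at day 2.5. All groups overlapped or were equal. The day 2 difference was 0 with a 95% interval of −0.92 to 0.92 points, and the day 2.5 difference was 0.19 (−0.73 to 1.11), the narrowest intervals among the 5 islands. The mean at day 2.5 minus that at day 2 was 0.19 points in wt (−0.73 to 1.11) and 0.38 in matΔ (−0.54 to 1.3).

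The *Hoxb7* island (chr11:96286678-96287449, 772 bp, 66 CpGs) begins 55 bp after the annotated start of *Hoxb7* and covers UTR and coding sequence. Methylation was 0.866 and 0.278% in wt and 0.521 and 1.54% in matΔ at day 2, and 0.585 and 1.21% in wt and 0.694% in both matΔ lines at day 2.5. It was above 0 in all 8 libraries, as was the *Gm53* island, and the genotypes overlapped on both days. The matΔ minus wt difference was 0.46 points at day 2 (95% interval −0.70 to 1.62) and −0.20 at day 2.5 (−1.37 to 0.96). It was the only island of the 5 whose mean was higher in matΔ at day 2.

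The *Hoxb4* island (chr11:96318808-96319262, 455 bp, 52 CpGs) covers coding sequence of *Hoxb4*, 541 bp from its start, and has the highest GC content of the 5 at 74.3%. Wt values were 1.67 and 0.658% at day 2 and 2.47 and 1.25% at day 2.5, and matΔ values were 0 and 0% at day 2 and 2.08 and 0% at day 2.5. No wt library was at 0 and 3 of 4 matΔ libraries were. The difference was −1.16 points at day 2 (95% interval −3.08 to 0.75) and −0.82 at day 2.5 (−2.73 to 1.10), with adjusted p of 0.968 and 0.976 in limma. A single matΔ library, line 1 at day 2.5, carried all of the methylation seen at this island in that genotype.

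The *Hoxb2* island (chr11:96352945-96353489, 545 bp, 61 CpGs) covers coding sequence of *Hoxb2*, an anterior gene that acts in the hindbrain, together with an exon of the antisense transcript *Hoxb3os*. It holds no annotated transcript start, and the nearest, of *Hoxb3os*, lies 1202 bp away. The *Hoxb2* gene itself starts at chr11:96350525, outside the island. Wt values were 1.28 and 1.39% at day 2 and 0 and 1.39% at day 2.5, and all 4 matΔ libraries were at 0%. The means at day 2 were 1.34% ± 0.0755 and 0% (SD, n = 2 lines each). The difference was −1.34 points at day 2 (SE 0.48, 95% interval −2.50 to −0.17), with an unadjusted p of 0.0306 and an adjusted p of 0.968 in limma. At day 2.5 it was −0.69 points (−1.86 to 0.47), and over the days it was −1.01 (−1.96 to −0.07), with an unadjusted p of 0.0400 and an adjusted p of 0.854 in limma. A pattern of 0 in all 4 matΔ libraries with at least 3 wt libraries above 0 was seen in 1.2% of the 7196 islands tested, and the reverse pattern in 0.681%, which none of the 5 HoxB islands showed. This pattern was chosen after the values were seen.

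**Figure D3:**
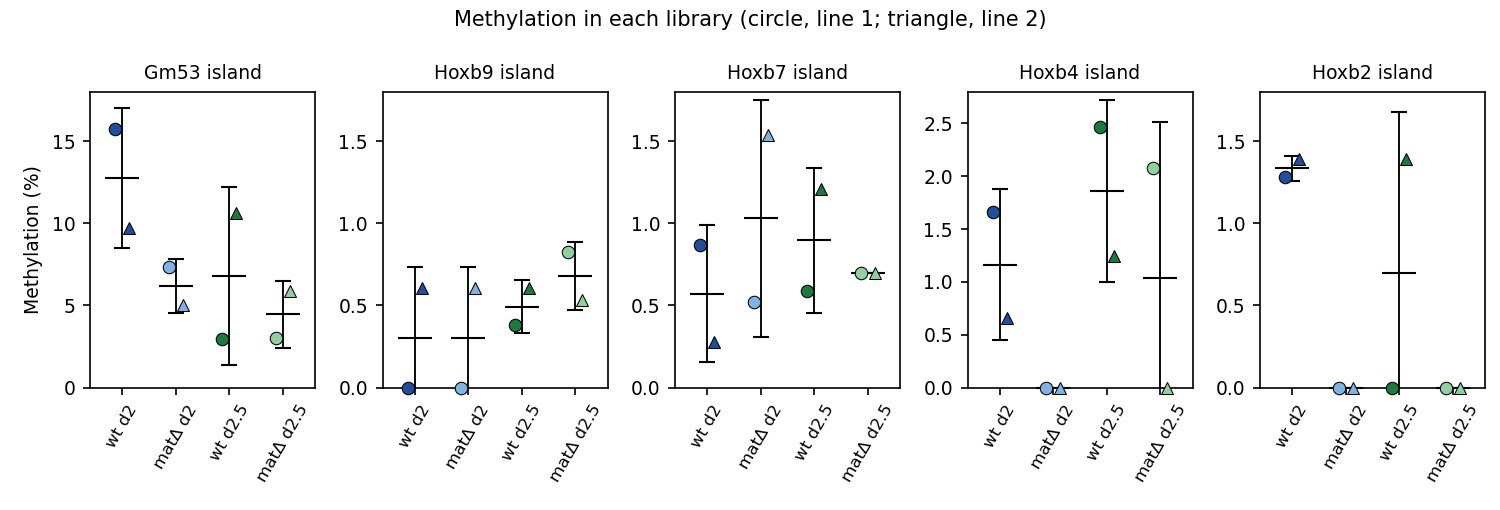
Methylation in percent (vertical axes, each from 0 and with its own range) of the 5 HoxB islands with values in each of the 8 libraries, by genotype and day (d2, day 2; d2.5, day 2.5). Circles are line 1 and triangles line 2, and the horizontal line and bar are the mean and SD of the 2 lines. Both wt libraries lie above both matΔ libraries at day 2 in the *Gm53*, *Hoxb4* and *Hoxb2* panels, and all matΔ libraries are at 0% in the *Hoxb2* panel.

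No HoxB island passed an adjusted p of 0.05 in any of the 6 comparisons fitted with limma, which were genotype at day 2, genotype at day 2.5, day in wt, day in matΔ, genotype by day, and genotype averaged over the days. The share of all 7196 islands that passed was 0.0% in each. At an unadjusted p of 0.05, 1 HoxB island was lower in matΔ at day 2 (*Hoxb2*), against 2.1% of all islands, 0 were at day 2.5, against 1.99%, and 2 were over the days (*Gm53* and *Hoxb2*), against 2.58%. The wt and matΔ libraries did not overlap at day 2 in 3 of the 5 islands, all lower in matΔ (*Gm53*, *Hoxb4* and *Hoxb2*). Over all islands 12.1% were lower without overlap and 12.7% higher, and no HoxB island was in the latter set. At day 2.5 no HoxB island was without overlap in either direction, against 13.6% lower and 11.8% higher over all islands.

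In direction, 3 HoxB islands were lower and 1 higher in matΔ at day 2, with 1 equal, and 4 were lower and 1 higher at day 2.5. The median difference over the 5 was −1.16 points at day 2 and −0.69 at day 2.5, against 0 over all islands on both days. Of all islands tested, 45.9% were lower in matΔ at day 2 and 48.1% at day 2.5. Values of 0 made up 2 of 20 wt and 8 of 20 matΔ values at HoxB, which is 10% and 40%. The shares were 37.2% and 39.2% over all islands, and 21.7% and 31.5% at the 23 islands of the other *Hox* clusters. The HoxB share of zeros in matΔ was thus close to that of all islands, and the share in wt was below it. The 8 matΔ zeros came from *Hoxb2* with 4, *Hoxb4* with 3 and *Hoxb9* with 1, and the share of zeros was not tested.

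**Figure D4:**
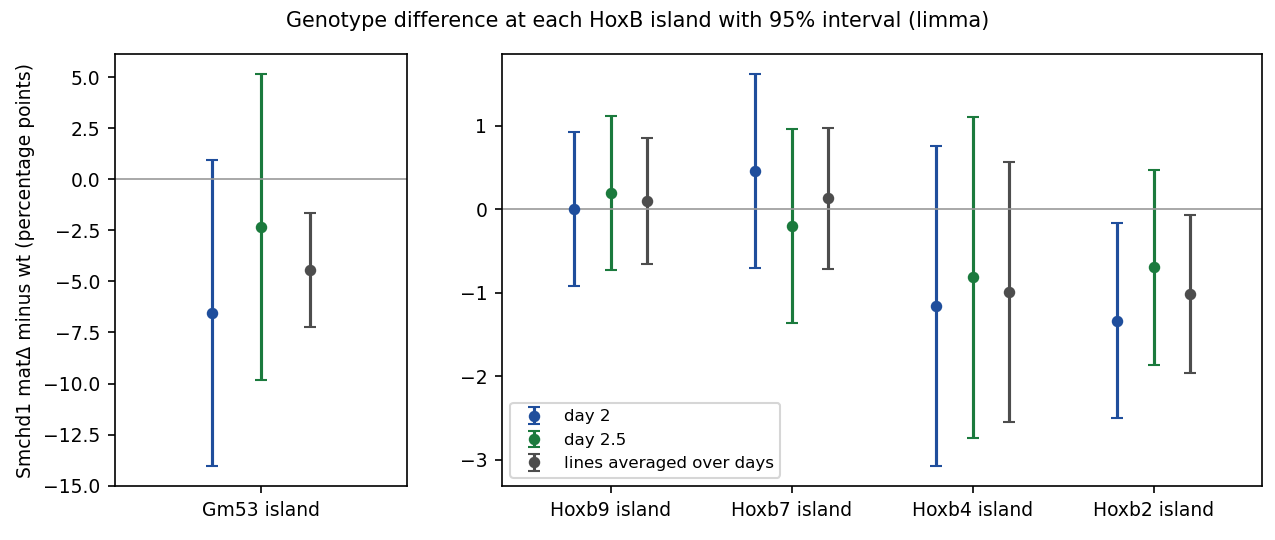
Difference in methylation, *Smchd1* matΔ minus *Smchd1* wt, in percentage points (vertical axis) for the *Gm53* island (left) and the 4 islands over Hoxb genes (right, on a narrower scale). Points are limma estimates at day 2 (blue), at day 2.5 (green) and with lines averaged over the days (grey), and bars are 95% intervals without adjustment. The intervals exclude 0 for *Hoxb2* at day 2 and over the days and for *Gm53* over the days.

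The mean over the 5 islands was 3.91 and 2.53% in wt and 1.57 and 1.43% in matΔ at day 2, and 1.28 and 3.01% in wt and 1.33 and 1.42% in matΔ at day 2.5. It was lower in both matΔ libraries than in both wt libraries at day 2, where the group means were 3.22% ± 0.976 and 1.5% ± 0.10 (SD, n = 2 lines each). The difference was −1.72 points (two-sided exact permutation p = 0.33, the smallest that 2 against 2 can give). At day 2.5 it was −0.77 points (exact permutation p = 1.0), with overlap. The change from day 2 to day 2.5 was −1.08 points in wt (exact permutation p = 0.667) and −0.13 in matΔ (exact permutation p = 0.33). The *Gm53* island carried much of this mean, and without it the day 2 means were 0.843% ± 0.156 in wt and 0.33% ± 0.287 in matΔ, and the change of day was 0.14 points in wt and 0.27 in matΔ.

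Against the 23 islands with values in the HoxA, HoxC and HoxD clusters, the HoxB mean was 2.06% and theirs 1.54%. The *Gm53* island was not alone in its level, as 2 of the 23 other islands, both in HoxA, had means over 5%, the highest 7.23%. HoxB was higher in 5 of 8 libraries. The difference of 0.52 points, pooled over the 4 lines of both genotypes, had an exact sign-flip permutation p of 0.375, where 1 in 8 is the smallest possible. By group it was 1.53 points ± 1.45 in wt and 0.034 ± 0.436 in matΔ at day 2. At day 2.5 it was 0.612 ± 1.58 in wt and −0.112 ± 0.294 in matΔ (SD, n = 2 lines each). The genotype difference at HoxB minus that at the other clusters was −1.49 points at day 2 (exact permutation p = 0.33) and −0.72 at day 2.5 (exact permutation p = 1.0). The day 2 value was −0.47 without wt line 1 and −2.52 without wt line 2, so a genotype difference particular to HoxB was not shown.

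Outside the *Hox* table, 11 islands were listed within 500 kb of the first or last HoxB island, and 9 had values. Their means over the 8 libraries were 0 to 1.3%, with a median of 0.419%. The highest single value among them was 3.33%, at the *B4galnt2* island on the posterior side. Each of the 9 means was below the lowest single value of the *Gm53* island, 2.94%.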

How the data were processed

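RRBS was performed on genomic DNA of 2 *Smchd1* wt and 2 *Smchd1* matΔ mESC lines at days 2 and 2.5, and groups were taken from genotype, day and line in the labels. According to the study's methods, the authors trimmed reads with TrimGalore (cutadapt 1.15), aligned them to GRCm38.p6 with Bismark 0.20.0 and averaged methylation by island in SeqMonk, requiring over 10 reads in each library. The deposited unit is percent methylation of an island in a library, not normalised between libraries, and depth is unknown. Averaging over an island hides single CpGs. The 4 mean columns of the authors were not tested.

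The HoxB islands were those on chromosome 11 in the *Hox* table, and all with values are described. Members and gene lists were chosen with earlier results of these data known. Islands were annotated with GENCODE vM21, and sequence counts came from the GRCm38.p6 genome. Fragment sizes were assumed, and reads were 75 bases, as the methods state. The sequence of 1 island is not reported here.

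Of 7461 islands, 7196 varied and entered a linear model in limma 3.58.1 (R 4.3.3) with a mean for each group, a variance trend, 4 residual degrees of freedom, two-sided tests and Benjamini-Hochberg adjustment over all 7196. The fit was tested on simulated data, with shifts that were all larger than the differences at the islands over Hoxb genes. Recovery of differences as small as those was not tested. Over the days, each line gave 1 value. Means over islands were compared by exact permutation (Python 3.11.15, pandas 2.3.3, scipy 1.17.1, numpy 2.4.6). Non-overlap means that every library of a group lies below every library of the other. Cell line pairs the days because each line was sampled on both. Deviations of the same lines correlated between the days at −0.06 in wt and 0.20 in matΔ, and at 0.04 and −0.02 between genotypes with the same line number. Lines come from separate blastocysts, and each was sampled once per day.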

Additional observations from a re-analysis of the deposited data

How the results depend on the processing

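No HoxB island passed an adjusted p of 0.05 in any of the 87 combinations of comparison and alternative, which covered a log2(percent + 1) scale, a minimum mean of 1% (which left *Gm53* and *Hoxb4* of the 5), library scaling, robust or untrended variance, only the libraries compared, leaving out each library, and the replicate block. The smallest adjusted p of a HoxB island in limma over these was 0.156. With cell line as a replicate block, the paired change of the HoxB mean kept its value in both genotypes. It was −1.08 points in wt (exact sign-flip p = 1.0) and −0.13 in matΔ (exact sign-flip p = 0.5, the smallest possible). In limma, cell line was the block for the day and genotype-by-day comparisons only. Genotype within a day was blocked by line number, which does not pair lines across genotypes. Neither block changed a call. Over all islands no alternative made a call except 24 of the 48 fits that left out a library, each with a lone library in the comparison, which was assumed to vary like the other groups. They called 76 to 122 islands, none at HoxB, against 0, and 91.1% of those calls had no spread between any remaining replicates.

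The HoxB change of day turned positive in wt without the *Gm53* island (0.14 points), and in matΔ without that island (0.27), as a median (0.38) or with islands weighted by length (0.0050). HoxB minus the other *Hox* islands turned negative as a median (−0.12) and without the *Gm53* island (−0.85). That removal was made on the HoxB side only, and no island was taken from the other clusters. Leaving out each library, the genotype difference of the HoxB mean ranged from −2.41 to −1.03 at day 2 and from −1.64 to 0.10 at day 2.5, and that of HoxB minus the other clusters from −2.52 to −0.47 at day 2 (−0.28 without the *Gm53* island) and from −1.84 to 0.39 at day 2.5, positive only without wt line 2. Of 349 single-island alternatives, none passed the threshold, 331 kept their sign or stayed at 0, 5 moved off a difference of 0, 2 moved to 0 and 11 reversed, the last each without a library. The ranges were, for genotype at day 2, −0.051 to 0.97 at *Hoxb7*. For genotype at day 2.5 they were −6.15 to 1.52 at *Gm53*, −0.51 to 0.11 at *Hoxb7* and −1.86 to 0.22 at *Hoxb4*. For day in wt they were −0.11 to 0.49 at *Hoxb9* and −1.34 to 0.053 at *Hoxb2*, and for day in matΔ −0.84 to 0.17 at *Hoxb7*. Over the days they were −0.11 to 0.30 at *Hoxb9* and −0.10 to 0.36 at *Hoxb7*. The cause was not tested. A coverage minimum could not be varied, since depth is unknown.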

Other observations

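The islands of genes that act in NMPs or upstream of *Hox* genes were also low. From a list of 18 such genes, including *Cdx2* and *Fgf8*, 15 had an island listed within 2 kb of a transcript start and 7 had a value, over 8 islands. Mean methylation of these 8 over all libraries ranged from 0.162 to 2.84%, with a median of 0.374%. None passed an adjusted p of 0.05 in limma in any of the 6 comparisons. At day 2, 4 were lower and 4 higher in matΔ, with a median difference of 0.12 points, and at day 2.5, 6 were lower and 2 higher, with a median of −0.17.

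The pattern of the *Gm53* island over the 8 libraries was most like that of the islands at the starts of *Cyp46a1* (Pearson r = 0.927), *Rgs6* (r = 0.909) and *Pdss1* (r = 0.902), among 1242 other islands with a mean of at least 1%. These are descriptions over 8 libraries from 4 lines, the highest of many values, and were not tested. The *Cyp46a1* island had a mean of 2.53% and each of the 3 was at 0% in at least 1 library, which the *Gm53* island never was.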
